A study of Mus musculus with 36 samples.

Results

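The genes described here are the enzyme families that handle drugs, dietary chemicals and other foreign compounds in the mouse small intestine. They were taken by the start of their symbol (Cyp2, Cyp3, Cyp4, Ugt1a, Ugt2, Gst, Sult or Ces) and chosen by their unique molecular identifiers (UMI, each a count of 1 captured RNA molecule), with at least 20 UMI summed over the annotated cells. Of 170 such symbols among 27998 genes in the files, 74 reached this level, 96 did not, and 53 of those 96 were listed at 0. The 74 genes were 17 of 58 Cyp2, 4 of 10 Cyp3, 8 of 22 Cyp4, 3 of 9 Ugt1a, 5 of 10 Ugt2, 21 of 22 Gst, 5 of 19 Sult and 11 of 20 Ces symbols. Gsto2 with 22 UMI and Sult1a1 with 41 UMI lay just inside the limit, and Cyp2d10 with 17 UMI and Ces2d-ps with 16 UMI just outside. The start of the symbol also caught 4 genes of other families, Cyp20a1, Cyp27a1, Cyp39a1 and Gstcd, which stay in all counts.

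The cells came from 2 droplet single-cell RNA libraries of separated intestinal cells from 12-month-old wild-type mice of strain C57BL6/2J, 1 library from each of the sets called set1 and set2 (library 1 and library 2 here). Neither library carries a treatment or a mutation, and the labels do not say how many mice went into each. The authors' annotation assigns 2614 cells, 1144 in library 1 and 1470 in library 2, to 8 epithelial types: intestinal stem cell, progenitor, enterocyte, secretory progenitor, goblet, Paneth, enteroendocrine and tuft. The labels also mention sorting of epithelial populations, so the cell numbers are not taken as tissue composition. The series holds 34 small RNA libraries besides, which were not used for these genes.

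Foreign compounds are commonly handled in steps. Cytochromes P450 of the Cyp2, Cyp3 and Cyp4 families oxidise them, and carboxylesterases (Ces) cut their ester and amide bonds. Conjugating enzymes then attach glucuronic acid (Ugt), glutathione (Gst) or sulfate (Sult), and membrane transporters carry the products out of the cell. The absorptive enterocyte of the villus is the classical site of this first-pass metabolism in the gut, and the nuclear receptors PXR (Nr1i2) and CAR (Nr1i3) and the factors HNF4 and HNF1 are known to act on many of the genes.

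Because these families are often described through shared promoter elements, the promoters were searched for short motifs on both strands. The window ran from 250 bases before to 50 bases after a gene's start in RefSeq (GRCm38.p6), and 64 of the 74 genes had at least 1 window. The letters CAAAGTCCA or CAAAGTTCA, which an HNF4 element can take, were in a window of 5 of the 64 genes (7.81%) and of 0.995% of all 27025 genes in the table. The 5 genes were Cyp2c65, Cyp2c67, Cyp2c68, Cyp3a11 and Sult1b1. The Cyp2c genes among them are neighbours in 1 array on chromosome 19, so the 5 are not independent counts. The HNF1 letters GTTAAT were in 15.6% of the 64 genes and 8.24% of all genes, and the GATA letters AGATAA in 20.3% and 12.7%. The antioxidant response letters TGACNNNGC (10.9% against 14%), the dioxin response core TGCGTG (6.25% against 9.59%), the CDX2 letters TTTATG (14.1% against 13.6%) and the nuclear receptor letters AGGTCA (15.6% against 18.1%) were close to or below the level of all genes. No motif contains another. These shares are descriptions of letters in a window, with no test of binding. The windows of 4 genes whose values are given below are printed 5′ to 3′ on the gene's own strand, with the HNF4 or HNF1 letters, or their reverse complement, in capitals. They are Cyp3a11 at chr5:145879805-145880104 (minus strand), Cyp2c65 at chr19:39060756-39061055 (plus strand), Sult1b1 at chr5:87536173-87536472 (minus strand, 1 of its annotated starts) and Ugt2a3 at chr5:87337146-87337445 (minus strand).
Cyp3a11: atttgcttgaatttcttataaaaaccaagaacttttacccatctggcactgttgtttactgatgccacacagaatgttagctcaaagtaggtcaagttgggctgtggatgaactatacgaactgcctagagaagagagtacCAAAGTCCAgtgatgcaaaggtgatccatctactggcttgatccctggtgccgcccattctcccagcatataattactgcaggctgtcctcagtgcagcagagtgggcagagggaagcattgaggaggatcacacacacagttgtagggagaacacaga
Cyp2c65: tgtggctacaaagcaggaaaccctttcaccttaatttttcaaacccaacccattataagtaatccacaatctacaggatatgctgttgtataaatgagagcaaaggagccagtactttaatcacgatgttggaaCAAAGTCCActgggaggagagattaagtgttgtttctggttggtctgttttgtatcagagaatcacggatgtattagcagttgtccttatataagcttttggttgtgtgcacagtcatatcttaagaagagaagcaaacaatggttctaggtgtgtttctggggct
Sult1b1: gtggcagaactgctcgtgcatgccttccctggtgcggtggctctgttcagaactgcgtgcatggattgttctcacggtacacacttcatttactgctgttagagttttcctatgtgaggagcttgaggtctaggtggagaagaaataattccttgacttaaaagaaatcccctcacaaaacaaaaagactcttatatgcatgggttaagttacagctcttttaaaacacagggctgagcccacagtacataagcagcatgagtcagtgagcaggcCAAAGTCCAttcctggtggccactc
Ugt2a3: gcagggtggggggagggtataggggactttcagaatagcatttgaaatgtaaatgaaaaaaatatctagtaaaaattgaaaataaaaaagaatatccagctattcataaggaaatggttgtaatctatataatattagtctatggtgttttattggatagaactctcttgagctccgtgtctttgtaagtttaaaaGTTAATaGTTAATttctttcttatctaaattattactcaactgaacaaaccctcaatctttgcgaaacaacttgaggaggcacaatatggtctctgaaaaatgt
The HNF4 letters begin 109 bases before the start in Cyp3a11 and 116 bases before it in Cyp2c65, and lie after the start in Sult1b1. The 2 HNF1 matches of Ugt2a3 begin 54 and 47 bases before the start.

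The annotated libraries were deep. The median UMI per cell ran from 11858 in enteroendocrine cells of library 1 to 73555 in Paneth cells of library 1, and enterocytes had 15163.5 and 24697.5 in library 1 and library 2. The 2 libraries shared 0 cell barcodes. Each type led the genes fixed as its markers in both libraries (at least 5 of 6 for stem cells and all for enterocyte, goblet, Paneth, enteroendocrine and tuft), with 2 exceptions. Progenitors led 5 of 5 cycling markers in library 1 and 3 of 5 in library 2, and secretory progenitors led 1 of 5 of theirs in each. The 5 summed to 267 and 296 CPM there and to 423 and 412 CPM in goblet cells, so the name secretory progenitor is the authors' and is not borne out by that list. In Paneth cells the 10 most abundant genes took 79.4% and 63.3% of all UMI, against 12.2% and 14.4% in enterocytes, so the scaled counts (CPM, UMI scaled to a total of 1000000) of every other gene are pressed down in Paneth cells. CPM is used here as the level of a gene in 1 type of 1 library, from UMI summed over its cells, and levels are compared between types within a gene. In summed cells, fewer expressing cells and less RNA per cell cannot be told apart.

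Enterocytes held the most RNA of these families. The 74 genes summed to 8160 CPM in enterocytes of library 1 and 5635 CPM in library 2. The same sum was 1961 and 1803 CPM in progenitors, 1880 and 1913 in enteroendocrine cells, 1621 and 1436 in stem cells and 1474 and 1630 in goblet cells. It was 1848 and 1343 CPM in tuft cells, 1262 and 1382 in secretory progenitors, and 220 and 364 in Paneth cells. Both enterocyte values lay above every other type's values, and Paneth cells lay below all. At the level of single cells the genes made up a median of 0.712% of an enterocyte's UMI in library 1 and 0.492% in library 2. The middle 90% of enterocytes ran from 0.255% to 1.65% and from 0.278% to 1.11%. In progenitors the medians were 0.173% and 0.175%, with 0.0732% to 0.363% and 0.089% to 0.288%, so the ranges of single enterocytes and progenitors overlapped.

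The ratio of enterocyte to progenitor level differed between families. Summed Cyp3 level was 397 and 327 CPM in enterocytes and 30 and 26.2 CPM in progenitors, a mean ratio of 12.9 (SD 0.514, n = 2 libraries). For Cyp4 the sums were 1033 and 782 CPM against 125 and 109 CPM, a ratio of 7.72 (SD 0.731, n = 2). Ces genes stood at 1575 and 1000 CPM against 355 and 222 CPM, 4.47 times higher (SD 0.0499, n = 2), and Cyp2 genes at 690 and 477 CPM against 138 and 132 CPM, 4.31 times higher (SD 0.994, n = 2). The ratios of the conjugating families were Sult 3.7 (SD 0.0984), Ugt2 3.06 (SD 0.484), Gst 2.55 (SD 1.09) and Ugt1a 1.49 (SD 0.0146), each over 2 libraries. An SD of 2 ratios leaves out counting error. In library 1 the Ugt1a sums rested on 43 UMI in enterocytes and 27 UMI in progenitors. Their 95% Poisson intervals, 4.87 to 9.07 and 2.95 to 6.52 CPM, overlapped. Without Gsto1 the Gst ratio was 5.55 in library 1 and 2.29 in library 2 (mean 3.92, SD 2.3, n = 2), and without Ces2e the Ces ratio was 3.8 and 3.5. Outside enterocytes and Paneth cells the Gst sums lay between 668 and 1202 CPM in library 1, where enterocytes had 3099 CPM. In library 2 they lay between 723 and 972 CPM, where enterocytes had 1513 CPM.

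**Figure D1:**
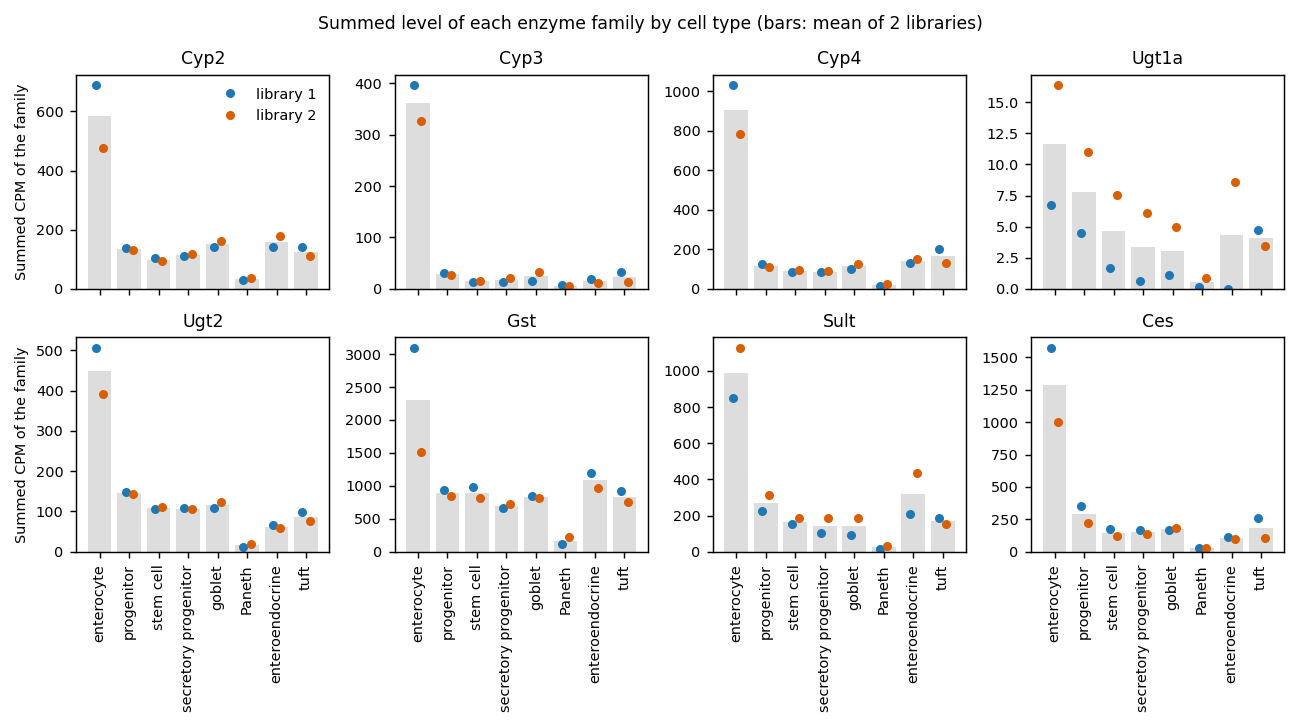
Summed CPM (vertical axes, linear from 0, scaled per panel) of each of the 8 families in the 8 cell types, with bars for the mean and points for library 1 and library 2. The enterocyte bar is the tallest in each panel, from 362 CPM for Cyp3 to 2306 CPM for Gst, with Ugt1a lowest at 11.6 CPM.

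Counted gene by gene, 52 of the 74 (70.3%) had their highest mean level in enterocytes. Among all 12930 genes with 20 UMI or more, 16.1% did. Enterocytes held the most UMI of any annotated type, 6387752 and 15332200, so a sparse gene can pass the 20 UMI limit through enterocytes alone. The 12930 genes passed the same limit. In 34 of the 52 both enterocyte libraries lay above both libraries of the next type (45.9% of the 74 genes, against 9.34% of all genes). Enteroendocrine cells led 7 genes, stem cells 6, goblet cells 4, tuft cells 3, progenitors 1, secretory progenitors 1 and Paneth cells 0. The leading type was the same in both libraries for 60 of the 74 genes. By family, enterocytes led 12 of 17 Cyp2, 3 of 4 Cyp3, 6 of 8 Cyp4, 3 of 3 Ugt1a, 4 of 5 Ugt2, 13 of 21 Gst, 3 of 5 Sult and 8 of 11 Ces genes. These leads are by mean level. Of the Gst genes led by enterocytes only Gsta1, Gstk1 and Gstm6 stood apart from the next type, and the 3 Ugt1a genes overlapped with progenitors.

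**Figure D2:**
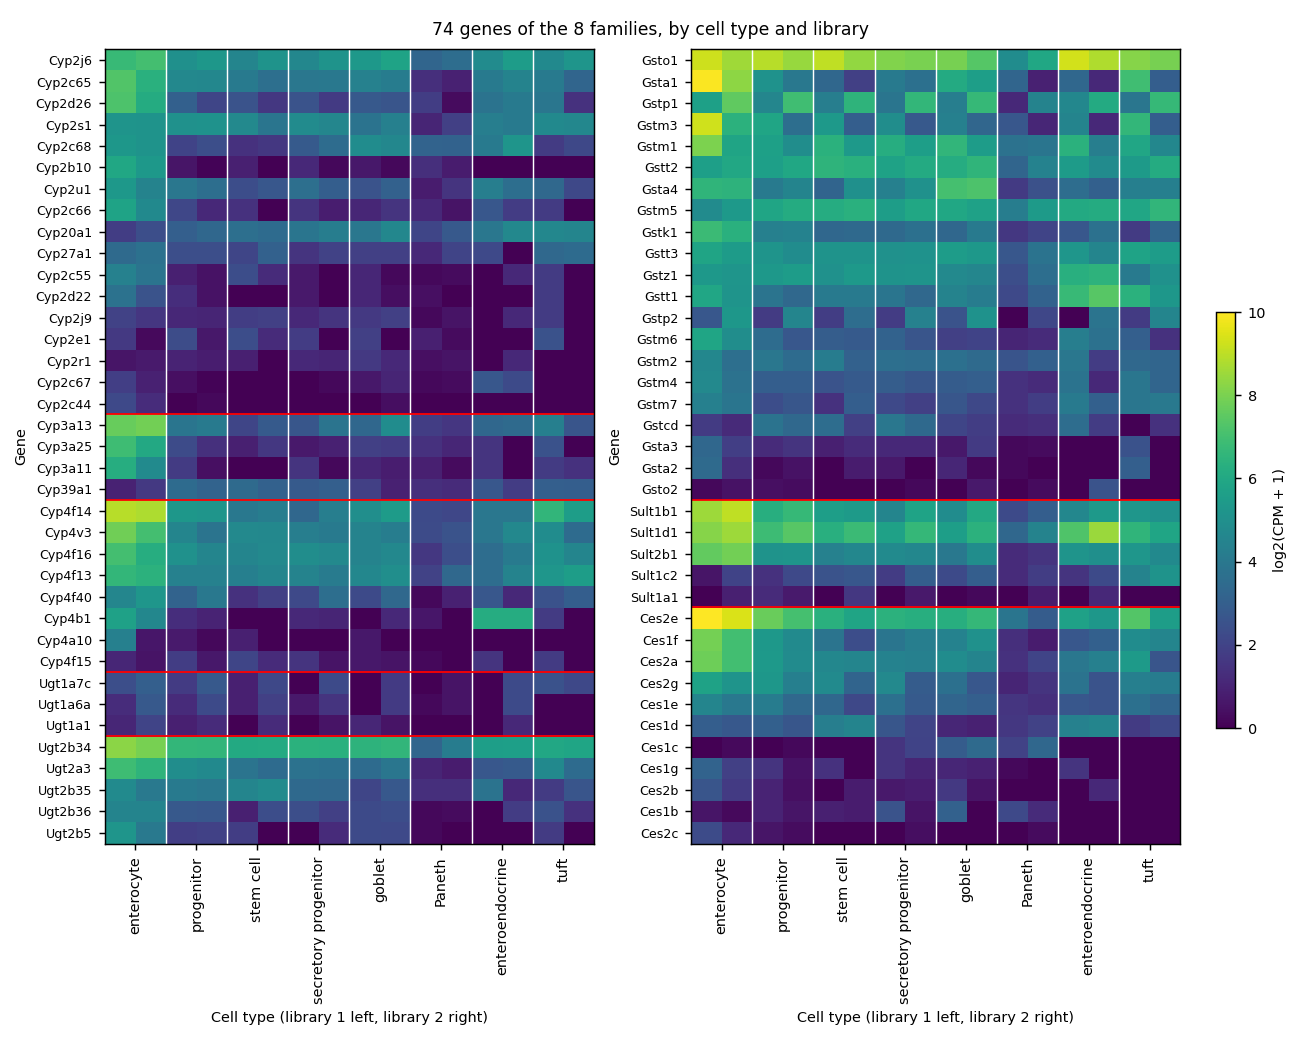
Level of each of the 74 genes as log2(CPM + 1) (colour scale) in every cell type and library, with red lines between families and genes ordered by total UMI within a family. The left column pair of each panel, enterocytes, is the brightest by its mean for 52 genes, while Gsto1, Gstt2, Gstm5 and Gstt3 are bright across most types.

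Pairs of cell types were compared with edgeR's quasi-likelihood test on the summed counts, with the library as a block. A gene was called at a Benjamini-Hochberg adjusted p under 0.05 over 11610 genes and a log2 fold change of at least 1. The fit also applies normalisation factors (TMM), which CPM does not. They were 0.948 and 1.04 in enterocytes and 1.17 and 1.28 in progenitors. Fitted fold changes of enterocytes over progenitors therefore lie somewhat above the ratios of the CPM printed beside them. Of the 74 genes, 63 passed the filter on low counts. The other 11 (Ces1g, Ces2b, Ces2c, Cyp2c44, Cyp2j9, Cyp2r1, Cyp4a10, Cyp4f15, Gsto2, Sult1a1 and Ugt1a1) are given by their levels. The authors named the types from these same cells, so a p-value here is no independent evidence of a difference. It sets the difference against the spread between the 2 libraries, estimated over all types in 1 fit and not only the types compared. Whether the libraries came from separate mice is not stated, and their spread may be partly technical.

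Enterocytes against progenitors gave 43 of 63 genes higher and 2 lower, where 13.3% of all genes tested were higher and 16% lower. The median log2 fold change was 2.05 for the 63 genes and -0.05 for all genes. Higher calls covered 11 of 14 Cyp2, 3 of 4 Cyp3, 6 of 6 Cyp4, 0 of 2 Ugt1a, 4 of 5 Ugt2, 13 of 20 Gst, 3 of 4 Sult and 3 of 8 Ces genes. Without the library block 40 were higher and 2 lower, and Gstm3, Gstp1 and Gstp2 were no longer called.

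**Figure D3:**
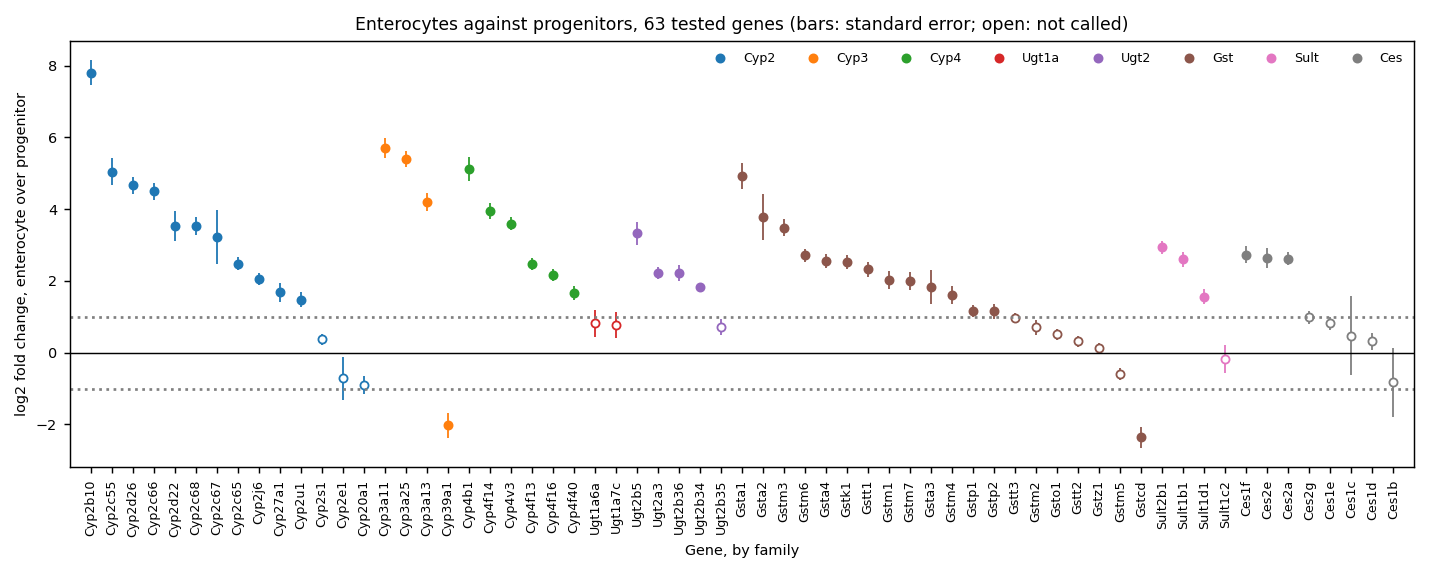
Fitted log2 fold change of enterocytes over progenitors (vertical axis) for the 63 tested genes, ordered by family and size, with bars for the standard error, filled points for called genes and dotted lines at 1 and -1. The 43 filled points above 1 span all families but Ugt1a, and the 2 below -1 are Cyp39a1 and Gstcd.

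Among the oxidising enzymes, the 3 tested Cyp3a genes were all higher in enterocytes than in progenitors. Cyp3a11, a mouse counterpart of the main human drug-oxidising CYP3A enzymes, stood at 73.4 and 26.8 CPM in enterocytes. Its level was 2.32 and 0.33 CPM in progenitors, 0 and 0 in stem cells, and at most 2.35 CPM in any other type. The enterocyte values differed between libraries but shared no range with another type. The fold change over progenitors was 5.69 on the log2 scale (SE 0.28, edgeR adjusted p = 1.25e-13). Against stem cells, with 0 UMI in both libraries, the level was at least 35.9-fold higher, taking 3 UMI over the 2 libraries as the limit that a count of 0 allows. Cyp3a25 behaved alike, with 117 and 65.2 CPM in enterocytes and 3.82 and 1.65 CPM in progenitors (log2 fold change 5.4, SE 0.22, edgeR adjusted p = 1.07e-14). Cyp3a13, a Cyp3a enzyme of the gut, was at 205 and 233 CPM in enterocytes, 13.6 and 16.2 CPM in progenitors and 9.24 and 28.4 CPM in goblet cells (enterocyte over progenitor 4.19, SE 0.25, adjusted p = 1.94e-12). The member caught by its symbol alone, Cyp39a1, an oxysterol hydroxylase of bile acid synthesis, ran the other way. It was at 0.939 and 2.15 CPM in enterocytes and 10.3 and 8.08 CPM in progenitors (log2 fold change -2.03, SE 0.34, adjusted p = 1.87e-05).

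Of 14 tested Cyp2 genes, 11 were higher in enterocytes than in progenitors. Cyp2b10, the classical target of CAR, was at 60.9 and 39.1 CPM in enterocytes on 389 and 599 UMI, against 3 and 1 UMI in all progenitors. Its fitted log2 fold change of 7.8 (SE 0.35, edgeR adjusted p = 9.84e-14) rests on those 4 UMI. Cyp2d26 stood at 146 and 71 CPM in enterocytes and 7.3 and 3.3 CPM in progenitors, and was 12.9 and 16 CPM in enteroendocrine cells. Cyp2c65, whose promoter is printed above, was at 153 and 81.3 CPM in enterocytes and 24.7 and 24 CPM in progenitors (log2 fold change 2.48, SE 0.19, adjusted p = 7.62e-11), and its values in stem, secretory progenitor, goblet, enteroendocrine and tuft cells lay between 8.6 and 20.9 CPM. Cyp2j6, an epoxygenase of unsaturated fatty acids, was at 106 and 129 CPM in enterocytes but also at 39.7 and 54.5 CPM in goblet cells and 31.3 and 38.2 CPM in progenitors. Cyp2s1 was nearly level, with 35.2 and 34.4 CPM in enterocytes and 32.7 and 33.2 CPM in progenitors, and was not called (log2 fold change 0.37, SE 0.16, adjusted p = 0.0507). Cyp2e1, the ethanol-inducible form of liver, had 72 UMI in all and at most 4.7 CPM in any type.

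All 6 tested Cyp4 genes, whose family is known for hydroxylating the ends of fatty acids and eicosanoids, rose from progenitors to enterocytes. Cyp4f14, a leukotriene hydroxylase, went from 38.2 and 35.8 CPM to 490 and 434 CPM (log2 fold change 3.94, SE 0.23, edgeR adjusted p = 1.12e-12). Its next highest level was 94.1 and 46.4 CPM in tuft cells. Cyp4v3, a fatty acid hydroxylase, went from 22.2 and 13.5 CPM to 224 and 127 CPM (3.59, SE 0.18, adjusted p = 1.24e-13). Cyp4f16 and Cyp4f13 rose from 32.3 and 22.5 CPM to 126 and 74.8 CPM and from 19.9 and 19.9 CPM to 96.1 and 84.3 CPM. Cyp4a10, a target of PPARA, was not tested and came almost wholly from 1 library, with 19.6 CPM in enterocytes of library 1 and 0.522 CPM in those of library 2.

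Of the 8 tested carboxylesterases, 3 were higher in enterocytes than in progenitors: Ces2e, Ces2a and Ces1f. Ces2e, of the Ces2 group that hydrolyses drug esters in the gut, was at 1015 and 688 CPM in enterocytes and at 208 and 133 CPM in progenitors (log2 fold change 2.63, SE 0.28, edgeR adjusted p = 2.82e-08). Progenitors and tuft cells overlapped in second place, and Paneth cells were lowest at 14 and 6.54 CPM. Ces2a rose from 41.1 and 27.2 CPM to 222 and 125 CPM and Ces1f from 39.3 and 26.6 CPM to 238 and 125 CPM. Ces2g, at 53.4 and 34.8 CPM in enterocytes and 38.2 and 19 CPM in progenitors, had a log2 fold change of 0.99 (SE 0.18) and just missed the limit of 1. Enterocytes led each of the 5 Ces2 genes, which are neighbours on chromosome 8 in RefSeq, and 3 of the 6 Ces1 genes of the other array on that chromosome. Ces2b and Ces2c were too sparse to test, with 92 and 53 UMI in all, and Ces2g overlapped with progenitors.

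Among the conjugating enzymes, 4 of 5 Ugt2 genes were higher in enterocytes than in progenitors. Ugt2b34, a glucuronosyltransferase, was at 305 and 248 CPM in enterocytes, 96.2 and 95.5 CPM in progenitors and 87.5 and 94.9 CPM in goblet cells (enterocyte over progenitor 1.82, SE 0.13, edgeR adjusted p = 6.47e-11). Ugt2a3 was at 117 and 89.8 CPM in enterocytes and 28.5 and 25.5 CPM in progenitors (2.22, SE 0.16, adjusted p = 6.02e-11). Ugt2b5 was at 36.5 and 15.5 CPM against 2.65 and 2.8 CPM. Ugt2b35 was not called (0.72, SE 0.23) and overlapped between stem cells (22.4 and 27.6 CPM) and enterocytes (26.9 and 15.6 CPM). The Ugt1a genes, which include the bilirubin-conjugating Ugt1a1, were sparse. Ugt1a7c was at 4.23 and 7.17 CPM in enterocytes and 2.32 and 5.93 CPM in progenitors (0.76, SE 0.36, adjusted p = 0.0739), and Ugt1a6a at 1.41 and 6 against 1.33 and 3.79 CPM (0.82, SE 0.38, adjusted p = 0.0681). Transcripts of the Ugt1a locus share their last exons. In the GENCODE transcripts 100% of the 50-base words in the last 500 bases of Ugt1a1, 66.7% of those of Ugt1a6a and 57.8% of those of Ugt1a7c also occur in another gene, so the 3 counts are uncertain as separate genes.

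Of 20 tested glutathione transferases, 13 were higher in enterocytes than in progenitors and 1 lower. Gsta1, an alpha-class enzyme, was at 972 and 311 CPM in enterocytes and 33.3 and 15 CPM in progenitors (log2 fold change 4.92, SE 0.36, edgeR adjusted p = 4.63e-11), while stem cells had 9.11 and 2.76 CPM. Since 91.7% of its 3′ words occur in other genes (Gm3776, Gsta2 and Gm10639), its counts belong to the group of Gsta1 and these genes rather than surely to 1 gene. Gstm3 was at 620 and 84.1 CPM against 58.1 and 11.3 CPM, higher in enterocytes within each library though the enterocyte values differ widely. Gsto1, which reduces dehydroascorbate among other substrates, was broad: 606 and 378 CPM in enterocytes, 484 and 354 CPM in progenitors, 529 and 335 CPM in stem cells and 641 and 445 CPM in enteroendocrine cells. These 4 types overlapped, and the fold change of enterocytes over progenitors (0.51, SE 0.16) stayed below the limit. Gstt2, from 27.1 to 91.6 CPM outside Paneth cells, and Gstm5, from 27.1 to 94.6 CPM in the same 7 types, were broad as well. Among those types Gstm5 was lowest in enterocytes (27.1 and 41.4 CPM). Gstcd, which carries only a transferase-like domain, fell from 13.1 and 9.31 CPM in progenitors to 2.35 and 1.3 CPM in enterocytes (-2.36, SE 0.3, adjusted p = 4.58e-07).

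Of the 4 tested sulfotransferases, 3 rose. Sult1b1, which sulfates phenols and thyroid hormones, went from 75.8 and 104 CPM in progenitors to 365 and 524 CPM in enterocytes (log2 fold change 2.6, SE 0.21, edgeR adjusted p = 1.93e-10). Sult2b1, which sulfates cholesterol, went from 33.8 and 34.7 CPM to 194 and 230 CPM (2.93, SE 0.17, adjusted p = 1.24e-12). Sult1d1, an amine and phenol sulfotransferase, went from 113 and 168 CPM to 293 and 371 CPM, and reached 151 and 357 CPM in enteroendocrine cells, where the values overlap with those of enterocytes. Sult1c2 did not take part (-0.17, SE 0.39, adjusted p = 0.729) and is described with tuft cells.

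Set against other types, enterocytes showed a like excess. Over goblet cells 44 of 63 genes were higher and 4 lower, with 12% and 12.8% of all genes, and over stem cells 47 were higher and 4 lower, with 17.7% and 16% of all genes. The medians of the 63 genes were 1.95 and 2.39 on the log2 scale. These 2 comparisons and the one with progenitors share the enterocyte libraries. Among the called genes Cyp4b1, Cyp2d22 and Cyp2c67 also had 0 UMI in stem cells of both libraries. They were at least 28.6-fold, at least 6.36-fold and at least 1.26-fold higher in enterocytes by the same limit, and Cyp2c67 lost its call without the library block and with DESeq2. The highest level of Cyp2c67 was in enteroendocrine cells. Without the block 39 were higher and 2 lower than in goblet cells, and 38 higher and 3 lower than in stem cells. The genes lower than in goblet cells were Ces1b, Ces1c, Cyp20a1 and Sult1c2, of which Ces1b and Sult1c2 lost the call without the block, and Ces1b rested on library 1, with a log2 value of -2.66 in the fit and 0.51 without that library. Those lower than in stem cells were Ces1d, Cyp20a1, Cyp39a1 and Gstcd, and Gstcd lost the call without the block.

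Stem cells against progenitors gave 1 gene higher and 5 lower, with 1.28% and 2.77% of all genes. Secretory progenitors against progenitors gave 2 higher and 6 lower, with 4.8% and 0.922%. The lower genes were ones that enterocytes hold most, among them Ces2e, Ugt2a3 and Cyp4f14 in both. Ces2e was at 81.2 and 55.8 CPM in stem cells, 84 and 76 CPM in secretory progenitors and 208 and 133 CPM in progenitors. Without the library block 1 gene was called in each comparison, Ces1d in stem cells and Ces1c in secretory progenitors. Ces1d, a carboxylesterase, was at 18.2 and 22.1 CPM in stem cells and 7.3 and 5.36 CPM in progenitors (log2 fold change 1.76, SE 0.28, edgeR adjusted p = 2.56e-04).

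The summed level of enteroendocrine cells was about that of progenitors, but single genes differed in both directions. Against progenitors 6 of 63 genes were higher, 20 lower and 37 not called, with 11.9% higher and 8.25% lower among all genes, and without the library block 5 were higher and 9 lower. Gstt1, a theta-class transferase that acts on small halogenated compounds, was at 107 and 166 CPM in enteroendocrine cells and 13.4 and 9.31 CPM in progenitors (log2 fold change 3.37, SE 0.25, edgeR adjusted p = 1.96e-10). Both enteroendocrine values exceeded those of tuft cells (82.3 and 37.8 CPM) and enterocytes (58.9 and 34.7 CPM). Cyp4b1, an extrahepatic P450 known for activating protoxins, was at 71.7 and 71.4 CPM in enteroendocrine cells, 52.4 and 23.9 CPM in enterocytes, and at most 2.35 CPM in any other type. It rested on 39 and 58 UMI in enteroendocrine cells, against 9 and 12 UMI in the many more progenitors (5.56, SE 0.4, adjusted p = 2.44e-10). The 8 enterocyte markers summed to 3.39% and 6.06% of their enterocyte level in enteroendocrine cells, and Cyp4b1 exceeded its enterocyte level there in both libraries. The part of enterocyte RNA from broken cells in these levels was not tested. Gstz1, an isomerase of tyrosine breakdown, was at 79 and 87.5 CPM in enteroendocrine cells and 39.6 and 44.9 CPM in progenitors, and was not called (0.67, SE 0.18, adjusted p = 0.00692). Ces1d was at 20.2 and 22.2 CPM, level with stem cells. Cyp2c67 was called higher too, also without the block and with DESeq2. It stood at 2.07 and 4.05 times its enterocyte CPM in library 1 and library 2. Of its 3′ words 51.2% occur in other genes, Cyp2c68 among them, so the gene is uncertain. On the lower side, Ugt2a3 was at 5.51 and 6.16 CPM, Ces1f at 5.51 and 7.39 CPM and Ces2e at 51.5 and 38.2 CPM, each below its progenitor values in both libraries. Another scaling (DESeq2 size factors) moved the median of all genes from -0.17 to 0.03 and the share of higher among all calls from 59.1% to 74.1%, with 7 genes of the families higher and 14 lower.

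In goblet cells 9 of 63 genes were higher and 5 lower than in progenitors, shares near those of all genes (12.5% and 11.2%), and 4 were higher and 2 lower without the library block. The 4 higher genes that kept their call without the block, with DESeq2 size factors and with DESeq2 were Gsta4, Cyp2c68, Ces1c and Cyp20a1. Gsta4, which conjugates lipid peroxidation aldehydes, was at 133 and 147 CPM in goblet cells, above enterocytes at 91.4 and 87.3 CPM and progenitors at 15.8 and 21.7 CPM (goblet over progenitor 3.23, SE 0.21, edgeR adjusted p = 1.08e-11). Cyp2c68 was at 28.3 and 24.1 CPM in goblet cells, 38.2 and 34.4 CPM in enterocytes and 16.5 and 35.7 CPM in enteroendocrine cells, against 2.99 and 4.29 CPM in progenitors. Of its 3′ words 51.2% occur in Cyp2c67, Cyp2c69 or Cyp2c40, so the gene within that group is uncertain. Ces1c, a secreted plasma carboxylesterase in the mouse, had 12 and 66 UMI in goblet cells and 17 and 40 UMI in Paneth cells, against 0 and 2 UMI in progenitors and 0 and 3 UMI in enterocytes. It was detected in secretory progenitors at 1.81 and 3.04 CPM and at 0 UMI in stem, enteroendocrine and tuft cells. Its array neighbour Ces1b, with 25.1% of 3′ words shared with Ces1c, was at 7.61 CPM in goblet cells of library 1 and 0 in those of library 2. Cyp20a1, an orphan P450, was at 14.7 and 23.9 CPM in goblet cells, overlapping with enteroendocrine cells (14.7 and 24.6 CPM). Its mean was highest in tuft cells (23.5 and 22.4 CPM). It was at 7.13 and 9.06 CPM in progenitors and 2.5 and 4.3 CPM in enterocytes, which overlapped with Paneth cells (3.24 and 5.87 CPM) at the low end.

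**Figure D4:**
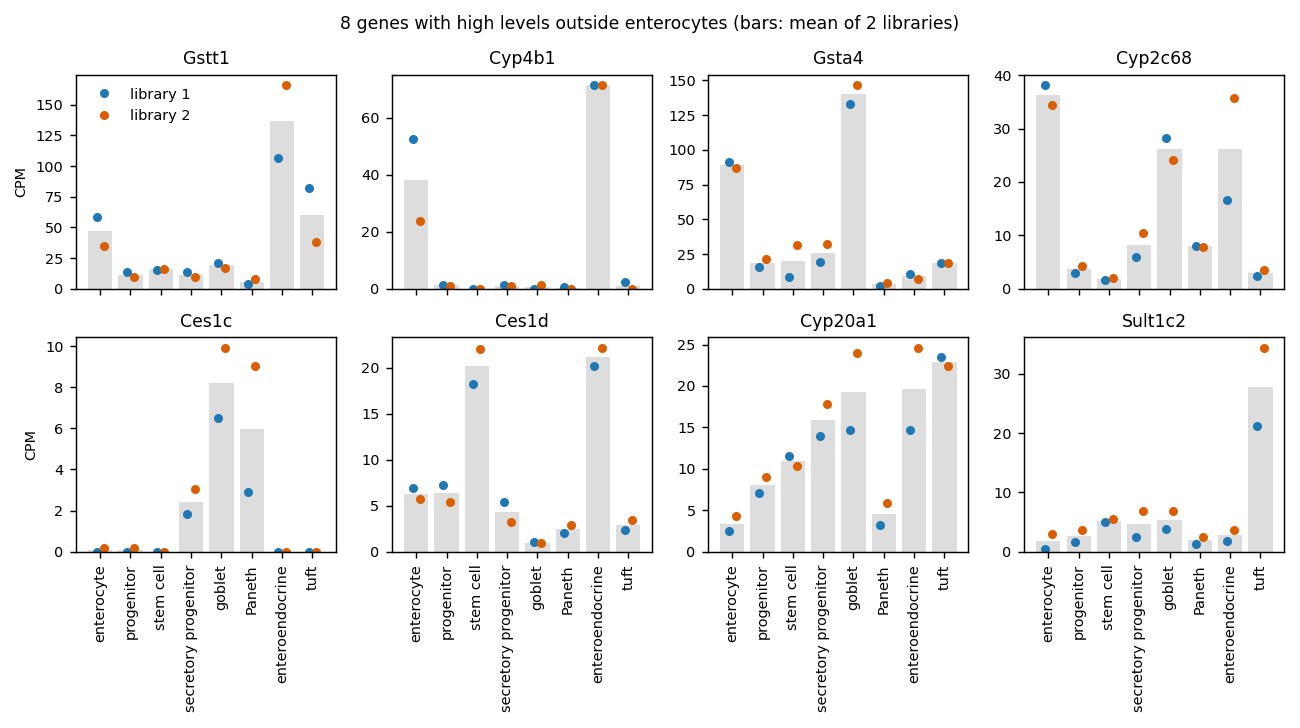
CPM (vertical axes, linear from 0, scaled per panel) of 8 genes with high levels outside enterocytes, in the 8 cell types, with bars for the mean and points for library 1 and library 2. Gstt1 and Cyp4b1 peak in enteroendocrine cells, Gsta4 in goblet cells and Sult1c2 in tuft cells, and Ces1c is seen in goblet, Paneth and secretory progenitor cells.

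Tuft cells, with 24 and 23 cells, gave 3 genes higher and 6 lower than progenitors, with 6.39% and 4.68% of all genes. Sult1c2, a sulfotransferase of phenols, was at 21.2 and 34.4 CPM on 9 and 20 UMI, and at most 6.92 CPM in any other type (log2 fold change over progenitors 3.14, SE 0.47, edgeR adjusted p = 3.30e-05). Gstt1 and Cyp20a1 were higher too, and Sult1b1 was lower at 37.6 and 32.7 CPM. The calls of Sult1c2, Gstt1 and Sult1b1 held without the library block, with DESeq2 size factors and with DESeq2, and 4 genes in all were called without the block. With DESeq2 size factors the share of higher among all calls moved from 57.7% to 73.5%, and 4 genes of the families were higher and 3 lower.

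Paneth cells had the least of these RNAs in CPM. Against progenitors 10 genes were higher and 16 lower, with 11.6% and 9.66% of all genes, but the normalisation factors of Paneth cells were 0.17 and 0.408, and 6 of the 10 genes called higher had a lower CPM in Paneth cells in both libraries. The other 4 (Ces1c, Ces1b, Cyp2b10 and Cyp2c68) were higher in CPM as well, and Ces1b lost its call without the library block. Ces1c was at 2.9 and 9.02 CPM against 0 and 0.165 CPM, and Cyp2c68 at 8.02 and 7.89 CPM against 2.99 and 4.29 CPM. Lower genes included Ugt2a3, with 6 and 3 UMI in Paneth cells against 172 and 310 in progenitors. With DESeq2 size factors 12 were higher and 11 lower and the share of higher among all calls went from 54.5% to 68.5%, and without the block 4 were higher and 8 lower. Those 4 were Ces1c, Cyp2b10, Cyp2c68 and Cyp20a1, the last of which is lower in CPM. For stem cells the same rescaling moved that share from 31.6% to 41.8%.

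RNA released by broken cells can place enterocyte transcripts in other droplets, so the 34 genes in which enterocytes stood apart were set beside the enterocyte markers. In progenitors these genes stood at a median of 17% and 18.6% of their enterocyte CPM in library 1 and library 2, against 5.27% and 6.12% for the summed markers, and 7 of 34 lay at or below the markers' share in each library. In goblet cells the medians were 8.68% and 16.7% against 6.83% and 13.2%, with 11 and 13 genes at or below. In Paneth cells they were 1.31% and 1.5% against 1.03% and 1.26%, with 15 and 16 at or below. The part of released RNA in these levels was not tested. Cyp2s1 had the highest share in progenitors, 92.8% and 96.6%. Leukocyte markers summed to between 15.9 and 165 CPM in every annotated type, and red cell markers to 2078 CPM in progenitors of library 1 and at most 42.9 CPM elsewhere. Their part in the results was not tested.

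Enzymes and regulators that work with these families moved with them in part. The lists were drawn up from general knowledge, with earlier results of these data known. Of 18 regulators tested, 4 were higher in enterocytes than in progenitors and 0 lower, with 13.3% and 16% among all genes. They were Nr1i3 (CAR), Nr1i2 (PXR), Nr1h3 (an oxysterol receptor) and Nr1h4 (the bile acid receptor). Nr1i3 was at 44.5 and 40.4 CPM in enterocytes and 7.96 and 10.4 CPM in progenitors (log2 fold change 2.46, SE 0.21, edgeR adjusted p = 6.71e-10). Nr1i2 was at 47.7 and 37.2 CPM against 25 and 21.2 CPM (1.16, SE 0.15, adjusted p = 5.73e-07). Hnf4a, at 179 and 158 against 275 and 203 CPM, and Ahr, at 6.58 and 10.5 against 9.62 and 13 CPM, were not called (-0.19, SE 0.16, adjusted p = 0.311, and -0.09, SE 0.21, adjusted p = 0.719). Of 36 tested of 40 partner enzymes, 23 were higher and 0 lower. Por, which passes electrons to all microsomal P450 enzymes, was at 130 and 61.9 CPM against 34 and 27.1 CPM (1.89, SE 0.22, adjusted p = 1.10e-07), and Cyb5a, an alternative electron donor, at 897 and 866 against 322 and 371 CPM. Papss2, which makes the sulfate donor for the Sult enzymes, was at 94.4 and 44.9 against 3.15 and 3.96 CPM, and Ugdh, which makes the sugar donor for the Ugt enzymes, at 201 and 98 against 56.1 and 38.9 CPM. In tuft cells Adh1, an alcohol dehydrogenase, was at 1714 and 800 CPM, above its enterocyte values of 382 and 94.3 CPM.

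Of 17 tested of 20 transporters, 11 were higher in enterocytes than in progenitors and 2 lower, where 13.3% of all genes were higher and 16% lower. Abcc2, which exports glucuronide and glutathione conjugates, was at 104 and 79.2 against 13.4 and 16.4 CPM (log2 fold change 2.88, SE 0.22, edgeR adjusted p = 7.62e-11). Abcg2, an exporter of sulfate conjugates and drugs, was at 105 and 151 against 34.7 and 53.2 CPM, and Abcb1a, which encodes a P-glycoprotein, at 78.3 and 54.7 against 29.7 and 26.1 CPM. The lower ones were Slco3a1, at 0.626 and 0.978 against 8.29 and 13.8 CPM, and Abcc1, at 1.57 and 1.17 against 4.15 and 5.85 CPM. Against goblet cells 10 of 18 regulators, 24 of 36 partner enzymes and 11 of 17 transporters were higher in enterocytes, with 0, 1 and 4 lower, where 12% of all genes were higher and 12.8% lower.

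Many of the genes are genome neighbours. In RefSeq GRCm38.p6, 44 genes fell into 9 arrays of 3 or more with starts at most 1000000 bases apart. Enterocytes led 34 of these 44 (77.3%), close to their share of all 74 genes (70.3%). They led 5 of 5 in the Ces2 array, 6 of 7 Gstm genes on chromosome 3 and 6 of 7 in the array of Ugt2 and Sult1 genes on chromosome 5. They led 4 of 5 Cyp4f genes on chromosome 17 and 4 of 5 Cyp2c genes on chromosome 19. In the Gstt array on chromosome 10, enteroendocrine cells led Gstt1 and stood apart from the next type. Gstt3 had its highest mean in enterocytes, overlapping with tuft cells, and Gstt2 in stem cells, overlapping with goblet cells. Enterocytes led 3 of 6 in the Ces1 array, 3 of 3 Ugt1a genes and 2 of 3 in the Gsta array, where goblet cells led Gsta4. A lead is the highest mean of the 2 libraries and can overlap with the next type. Of the Gstm genes led by enterocytes, only Gstm6 stood apart. Ces1e, Ces2g and the 3 Ugt1a genes overlapped with progenitors, Sult1d1 with enteroendocrine cells and Gsta2 with tuft cells. Arrays hold close copies, and 8 of the 73 genes found in the transcripts share over 50% of their 3′ words with another gene while 31 share none, so neighbours are not independent counts.

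The 2 libraries disagreed on several glutathione transferases. Gstp1, a pi-class enzyme, was at 50.4 CPM in enterocytes of library 1 and 188 CPM in library 2. It was higher in library 2 in 8 of 8 cell types, by 1.49 to 3.34 on the log2 scale, and its close copy Gstp2 by 1.79 to 3.86. The value of 3.34 is from Paneth cells, where the median of all genes was 1.17. Of the 3′ words of Gstp1 37.7% and of Gstp2 59% occur in other genes, so the 2 are not separate counts. The types of a library were captured together and are not independent repeats. Gstm3 was lower in library 2 in 8 of 8 types, with log2 values from -3.66 to -1.08, and Gsta1 in 8 of 8 types (-3.97 to -0.41). Gstm1 was at 262 and 55.8 CPM in enterocytes. In enterocytes 11 of 50 of these genes at 10 CPM or more (22%) differed more than 2-fold between libraries, against 6.03% of 6587 genes, and their median was -0.57 against 0.12. The 8 enterocyte markers also had a higher sum in enterocytes of library 1, 47202 against 20535 CPM. Of these, Fabp1 was at 19229 and 5989 CPM, Apoa4 at 1062 and 367 CPM and Alpi at 209 and 97.2 CPM, and the rest are not given here. Their part in the difference was not tested.

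**Figure D5:**
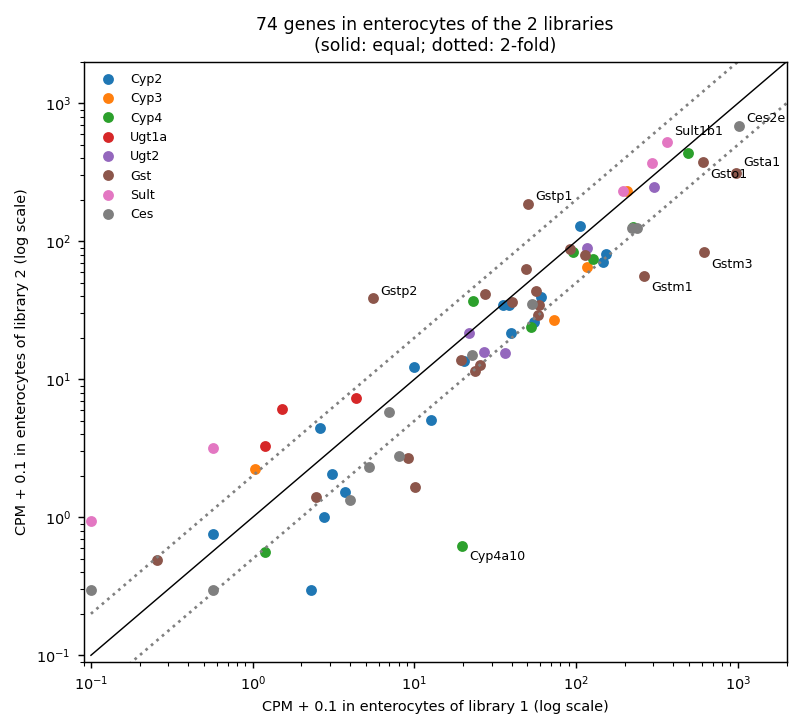
CPM plus 0.1 of the 74 genes in enterocytes of library 1 (horizontal) and library 2 (vertical), both on log scales, coloured by family, with a solid line for equality and dotted lines for 2-fold differences. Gstp1 and Gstp2 lie above the upper dotted line, and Gsta1, Gstm3, Gstm1 and Cyp4a10 below the lower one.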

How the data were processed

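The authors deposited 10x matrices of UMI counts per gene and cell barcode for each library and a table that assigns cells to types. Per the submitters' processing notes the build was mm9, and the matrix header of library 2 gives software version 3.0.1. For aligner and annotation nothing is stated in the labels or file headers. Only annotated cells entered, with no further filter on cells and no doublet caller. Counts were summed per type and library and scaled to CPM, and 0 per-sample columns were left unmatched.

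The 16 sums (8 types, 2 libraries) were fitted with edgeR 4.0.16 in R 4.3.3 (TMM factors, filterByExpr, quasi-likelihood, 7 residual degrees of freedom), with Benjamini-Hochberg adjustment over 11610 genes. SE is the log2 fold change divided by the square root of F. The library was a block because all types of a library were captured together. Deviations from the type means correlated between types at 0.234 to 0.705 (median 0.408, 28 pairs). Alternatives were no block, DESeq2 1.42.0 size factors, the DESeq2 test, other filters and leaving out a library. On simulated counts for enterocytes against progenitors (10488 genes), 50 of 50 genes raised 4-fold and 21 of 50 raised 2-fold were called, and 0 of 10288 unchanged genes. The simulation gave all genes 1 dispersion (0.0139), all types the same composition but for the changed genes, and the libraries no effect. The changed genes were not drawn from the sparsest. It therefore checks the code and does not give the rate of false or missed calls in the real data.

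The members and lists were chosen with earlier results of these data known. Genes were named by rule: the 4 members with most UMI per family, up to 3 called rises and 3 called falls of largest size per comparison, the genes beside the 20 UMI limit, and list genes. Others named, such as Cyp2e1, Gstm5, Gstt2 and Cyp4a10, were chosen after their values were seen, as were the comparison of tuft cells, the 3′ sharing check (GENCODE transcripts) and the genes of the plot of levels outside enterocytes. Python 3.11.15 with NumPy 2.4.6, pandas 2.3.3 and Matplotlib 3.10.9 made the sums and plots.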

Additional observations from a re-analysis of the deposited data

Results flagged for a closer look

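Droplets that the authors' table leaves without a type also held RNA of these families. In library 1, 65 such barcodes with a median of 11041 UMI held 2840 UMI of the 74 genes, or 3495 CPM. In library 2, 6241 such barcodes with a median of 1738 UMI held 58702 UMI, or 2617 CPM. Both levels lay between those of enterocytes and progenitors of the same library. The enterocyte markers summed to 12255 and 11224 CPM in these barcodes, 26% and 54.7% of their level in enterocytes of the same library. Leukocyte markers summed to 4731 and 5150 CPM, and red cell markers to 46949 and 102 CPM. The part of any cell type in these levels was not tested.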

How the results depend on the processing

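Without the library block, which leaves differences between libraries in the error, the number of called genes against progenitors was 6 for goblet cells (14 with the block), 12 for Paneth cells (26), 14 for enteroendocrine cells (26), 1 for stem cells (6), 1 for secretory progenitors (8) and 4 for tuft cells (9). The total counts called in the 3 comparisons of enterocytes stayed within 1.5 times under each alternative fitted, but the genes lower than in goblet cells went from 4 to 2 without the block and with a filter of 10 UMI in both libraries. The DESeq2 test called 3 genes for stem cells and 5 for secretory progenitors, and 10 were called for stem cells with no filter on low counts. The cause was not tested. Of 193 named values, 180 kept their call with DESeq2 size factors, 166 with DESeq2 and 138 without the block. With 1 library left no test is possible, and counts past 2-fold ran from 14 to 25 for goblet cells, 17 to 19 for stem cells, 5 to 18 for secretory progenitors and 17 to 27 for tuft cells. Ces1b in enterocytes against goblet cells turned from -2.66 to 0.51 on the log2 scale without library 1, and was -3.20 without library 2. As a mean over cells the enterocyte to progenitor ratio was 13.6 for Cyp3, 1.44 for Ugt1a and 4.68 for Ces. Without the most abundant member it was 10.5 for Cyp3, 5.5 for Cyp4, 3.92 for Gst, 3.09 for Sult and 3.65 for Ces. Depth limits tuft and enteroendocrine cells most, and 11 of the 74 genes were too sparse to test.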
